A study of Mus musculus with 20 samples.

Results

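The Id proteins and their E protein partners were followed through the thymic precursors of natural intraepithelial lymphocytes (IELPs), T cells that later settle in the gut epithelium. The 6 genes Id1, Id2, Id3, Tcf3, Tcf4 and Tcf12 were chosen by name, out of 25213 genes with a transcript in the files, and all 6 were found. E proteins are helix-loop-helix transcription factors that bind DNA as dimers at short sites called E boxes, and in thymocytes they hold cells at developmental checkpoints and drive genes of T cell receptor assembly. Tcf3 encodes E2A, Tcf12 encodes HEB and Tcf4 encodes E2-2. Id proteins carry the dimerization domain without a DNA-binding one, so that an E protein bound to an Id protein cannot engage its site. Strong T cell receptor signals are known to induce Id3, and Id2 is known for its role in innate and innate-like lymphocytes.

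The cells were CD4- and CD8-depleted, double negative TCRαβ+ thymocytes of 3 genotypes, and the mice of all 3 carried a transgenic ZsGreen reporter of T-bet (TBGR) on a C57BL/6 background. TBGR mice, labelled wild type, were 4 weeks old. TBGR C-myc fl/fl mice carried floxed C-myc alleles and TBGR C-myc D/DCd4 mice carried them deleted by a Cd4-Cre transgene, which acts in T lineage cells, and both were 2 weeks old. The number of mice behind the libraries of a genotype is not given in the labels, and the study's text uses both the singular and the plural. Index sorting in TBGR and C-myc fl/fl gave 4 populations, CD122-T-bet- (named CD122- here), CD122+T-bet- (named CD122+), and 2 further CD122+ populations with intermediate and high reporter signal, T-bet int and T-bet high (named int and high). The C-myc D/DCd4 genotype gave the T-bet- populations, CD122- and CD122+, alone. Each TBGR and C-myc D/DCd4 library of 96 wells held 1 population, whereas each C-myc fl/fl library held 2, either both T-bet- populations or int and high.

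Of 1920 wells with a sorted cell, 1413 held at least 2000 transcripts and were kept, 678 from TBGR, 470 from C-myc fl/fl and 265 from C-myc D/DCd4. They gave 28 sums of a population in a library, of 22 to 94 cells and 94268 to 775264 transcripts each. Levels are transcripts of a gene per 1000000 transcripts (CPM) in these sums, with exact 95% Poisson intervals that cover counting error only. The libraries of a genotype are not known to come from separate mice and were not taken as its replicates, so no test between conditions was run. The genotype cannot be told apart from the mice used or, for TBGR against the other genotypes, from age. Markers of αβ T cells summed to 4045 to 7270 CPM over the 10 populations, with 7 of the 8 listed detected in every population and Trbc2 not analysed here. Tbx21, which encodes T-bet, stood at 0, 1.36, 48.0 and 165 CPM from the first to the last TBGR population and at 0, 6.60, 18.8 and 60.0 CPM in C-myc fl/fl. The study describes the gate as NK1.1-, while its series record names an NK1.1+ gate. Klrb1c, which encodes NK1.1, reached 563 CPM in TBGR high cells, where Klrk1 had 391 transcripts, the 4 NK cell markers summed to 1118 CPM, and Ncr1 and Eomes were both at 0. In the deposited annotation that names these wells, 1 TBGR high library stood apart by the share of its transcripts in barcodes with no sorted cell, 4.17% against at most 0.725% in the other libraries.

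Id1 was close to absent, with 9 transcripts in 8 cells over all populations and none in C-myc fl/fl. Id2 and Id3 made up nearly all Id transcripts, and both lie in short genes that the annotation of build GRCm38 (GENCODE vM21) places at chr12:25093799-25097140 on the minus strand and at chr4:136143497-136145755 on the plus strand. Tcf3 lies at chr10:80409514-80433647 and Tcf12 at chr9:71842688-72111871, both on the minus strand. In both genotypes with high cells, Id2 had its highest pooled level there and Id3 its lowest. A stretch upstream of the Id2 RefSeq transcription start is shown because it holds an E box, the kind of site that E proteins bind. It is chr12:25096254-25096342 on the minus strand of GRCm38.p6. The stretch lies inside the annotated span of Id2, whose outermost start is further upstream than the RefSeq start, and it overlaps no annotated exon:
Id2 upstream stretch: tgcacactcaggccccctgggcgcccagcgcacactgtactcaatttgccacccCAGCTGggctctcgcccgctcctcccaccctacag
The capitals mark the letters CAGCTG, which begin 196 bases before the RefSeq start and read the same on both strands. CAGCTG was found in 13.0% of the 32851 RefSeq windows of 250 bases upstream of a start, and the general pattern CANNTG in 66.2%. The window of Id3 held no CANNTG, the window of Tcf3 held CACTTG at 54 bases before the start, and of 3 windows of Tcf12 the first held CAGCTG, the second CAAGTG and the third none.

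Id2 was lowest in the T-bet- cells and highest in high cells of the TBGR genotype. In CD122- cells the 2 libraries gave 182 and 143 CPM (pooled 162, interval 138 to 189). In CD122+ cells they gave 222 and 163 CPM (pooled 194, interval 172 to 218), so that these 2 populations overlapped. In int cells they gave 426 and 481 CPM (pooled 453, interval 417 to 491), and in high cells 1761 and 1606 CPM (pooled 1710, interval 1614 to 1809). Both int libraries lay above every T-bet- library, and both high libraries lay above every int library. A gene was counted as higher or lower when its ratio reached 2-fold and no library of one group overlapped the other, among genes with at least 20 transcripts over both groups.

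Id3, in contrast, was highest in the middle of the sequence and close to lost at its end. The CD122- libraries gave 128 and 121 CPM (pooled 124, interval 103 to 149), and the CD122+ libraries 528 and 402 CPM (pooled 468, interval 434 to 505). The int libraries gave 329 and 248 CPM (pooled 289, interval 261 to 320). In high cells only 5 Id3 transcripts were counted, 8.49 and 4.28 CPM (pooled 7.09, interval 2.30 to 16.6), in cells that held 1710 CPM of Id2. No library of any population overlapped with one of its neighbours in this order. In bulk sums of this kind, fewer cells with a gene and fewer transcripts per cell cannot be told apart, which the values per cell given further on address.

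**Figure D1:**
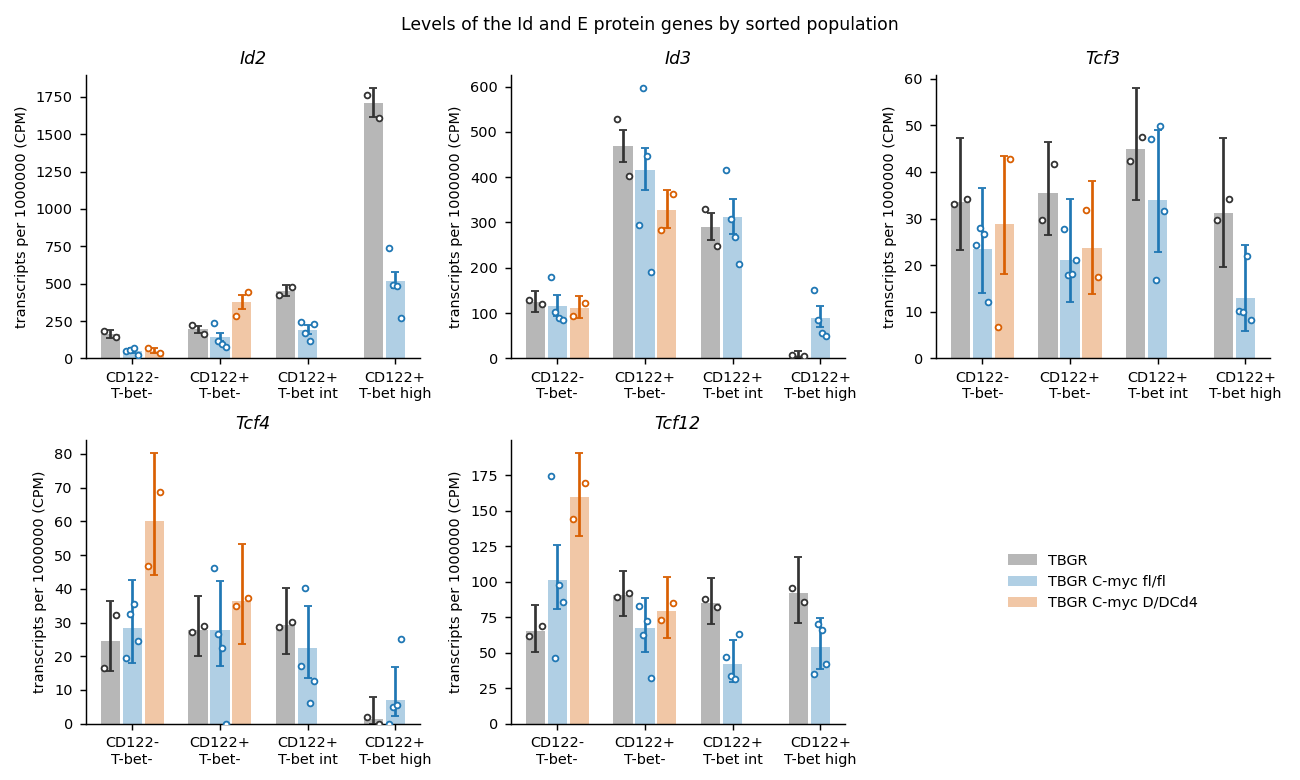
Levels of Id2, Id3, Tcf3, Tcf4 and Tcf12 in CPM for each sorted population of the 3 genotypes, with Id1 not drawn. Bars are the pooled level, error bars its exact 95% Poisson interval and open points single libraries. Id2 is highest in TBGR high cells (1710 CPM), Id3 in TBGR CD122+ cells (468 CPM), and Tcf4 has 1 transcript in TBGR high cells.

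The E protein genes were expressed at lower levels, and their changes were fewer. Tcf12 was the most abundant, with 65.3 CPM in CD122- cells of the TBGR genotype (libraries 62.0 and 68.5), 90.5 CPM in CD122+ cells (89.0 and 92.3), 85.1 CPM in int cells (87.9 and 82.2) and 92.2 CPM in high cells (95.5 and 85.7). Tcf3 stayed between 31.2 CPM (interval 19.6 to 47.3) in high cells and 44.9 CPM (interval 34.1 to 58.0) in int cells, with libraries from 29.7 to 47.4 CPM over the 4 populations. Tcf4 stood at 24.5, 27.9 and 29.4 CPM in the first 3 populations and at a single transcript, 1.42 CPM (interval 0.0359 to 7.91), in high cells. Thus Tcf3 and Tcf12 transcripts were found in every TBGR library, while Tcf4 was at 0 in 1 of the 2 high libraries.

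As ratios, the first step of the TBGR genotype, from CD122- to CD122+, raised 1 of the 5 members tested, against a background of 14.3% of all genes higher and 3.92% lower. Id1 had too few transcripts for this count in every comparison. Id3 rose by a log2 ratio of 1.91 (interval 1.63 to 2.20), which is 1.64 above the median gene of that step. Id2 gave 0.26 (interval -0.03 to 0.55), Tcf3 0.06, Tcf4 0.18 and Tcf12 0.47 (interval 0.03 to 0.93), the last with both CD122+ libraries above both CD122- libraries but under 2-fold. With cells thinned to 2000 transcripts the Tcf4 ratio was 1.21 (interval -0.06 to 2.77) and was called higher, its CD122+ level moving from 27.9 to 48.4 CPM. In the step to int, where 3.49% of all genes were higher and 6.94% lower, Id2 was the 1 member that rose (log2 ratio 1.22, interval 1.02 to 1.43). Id3 gave -0.69 (interval -0.88 to -0.51) in that step, below 2-fold, although both int libraries lay under both CD122+ libraries.

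The last TBGR step, from int to high, moved 3 of 5 members, 1 higher and 2 lower, where 7.93% of all genes were higher and 11.7% lower. Id2 rose by a log2 ratio of 1.92 (interval 1.77 to 2.06). Id3 fell by 5.21 on the log2 scale (interval -6.98 to -4.11), and Tcf4 fell by 3.81 (interval -9.71 to -1.81), the latter resting on 1 transcript against 38 and no longer called with cells thinned to 2000 transcripts (-4.03). Tcf3 gave -0.50 and Tcf12 0.12 in the same step. The pooled ratios of the E2A and HEB genes were thus under 2-fold. The Tcf3 interval (-1.30 to 0.21) reached past a 2-fold fall, and both high libraries lay below both int libraries for this gene.

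The C-myc fl/fl genotype gave a sequence of the same order with lower Id2. Its 4 libraries of CD122- cells held 48.5, 55.8, 71.2 and 24.4 CPM of Id2 (pooled 51.8, interval 37.4 to 70.1), and the same 4 libraries held 240, 116, 99.2 and 74.3 CPM in their CD122+ cells (pooled 141, interval 116 to 171). The 4 other libraries held 244, 171, 118 and 228 CPM in int cells (interval of the pooled level 163 to 223) and 736, 491, 484 and 267 CPM in high cells (pooled 520, interval 468 to 577). Every CD122+ library lay above every CD122- library, int overlapped with CD122+, and every high library lay above every int library. The pooled Id2 level of high cells was 520 CPM here and 1710 CPM in the TBGR genotype, a difference that the mice used, age and the position of the T-bet gate cannot be told apart from, since Tbx21 in those cells was also 60.0 against 165 CPM.

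Id3 in C-myc fl/fl was again highest in CD122+ cells, with 295, 597, 447 and 191 CPM (pooled 416, interval 371 to 464) over 179, 102, 89.0 and 85.4 CPM in CD122- cells (pooled 115, interval 92.7 to 141). Int cells held 416, 308, 268 and 209 CPM (pooled 312, interval 275 to 351), overlapping with CD122+ cells. High cells held 151, 85.2, 55.0 and 50.1 CPM (pooled 90.1, interval 69.2 to 115), below every int library but well above the 7.09 CPM of the TBGR high cells.

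In the first step of this genotype Id2 and Id3 both rose, 2 of 5 members, where 5.39% of all genes were higher and 0.928% lower. The log2 ratio was 1.44 (interval 0.92 to 2.00) for Id2 and 1.85 (interval 1.52 to 2.21) for Id3, or 0.95 and 1.37 above the median gene, which itself stood at 0.48. The Id2 ratio was 0.93 without the first library, under 2-fold, and with cells thinned to 2000 transcripts neither Id2 (1.10) nor Id3 (1.87) was called. Id2 was also no longer called under median-of-ratios scaling (1.22). No member passed in the step to int, with Id2 at 0.44 (interval 0.08 to 0.81) and Id3 at -0.42 (interval -0.66 to -0.18), where 0.562% of genes were higher and 0.506% lower. In the step to high Id2 rose by 1.44 (interval 1.17 to 1.72) and Id3 fell by 1.78 (interval -2.21 to -1.39), where 1.36% of genes were higher and 2.58% lower. With at least 3000 transcripts per cell the Id2 ratio was 1.40 and was not called.

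Because each of these libraries held both populations of a step, the ratio could also be taken within a library. For CD122+ over CD122- cells the 4 libraries gave log2 ratios of 2.25, 1.02, 0.47 and 1.54 for Id2 and of 0.71, 2.52, 2.30 and 1.15 for Id3. For high over int cells they gave 1.58, 1.52, 2.01 and 0.23 for Id2 and -1.44, -1.82, -2.23 and -1.97 for Id3. All 4 libraries gave the same sign for each gene and step. The intervals of Id2, though, held both signs in some of them. For CD122+ over CD122- cells these were library 3 (-0.52 to 1.51) and library 4 (-0.37 to 3.83). For high over int cells it was library 4 (-0.50 to 0.96). In libraries 2 and 3, however, the median gene of the CD122+ over CD122- ratio stood at 0.97 and 0.43, about where Id2 stood. The lower Id3 of high cells was the most even of these ratios.

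Tcf12 in C-myc fl/fl stood at 101 CPM in CD122- cells, with libraries from 46.5 to 175 CPM, and at 67.3, 42.3 and 54.3 CPM in the later populations. Its first step gave -0.58 (interval -1.12 to -0.07) and was not called. With cells thinned to 2000 transcripts, in a single random draw, the step was -3.05 (interval -5.61 to -1.55) and was called lower. The thinned CD122+ level, 12.3 CPM (interval 2.54 to 35.9), rested on 3 cells with at most 1 transcript each. Tcf3 had 9 transcripts in all high cells (12.9 CPM, interval 5.88 to 24.4) and 34.1 CPM in int cells. Tcf4 stood at 28.4, 27.7 and 22.3 CPM and then at 5 transcripts in high cells (7.15 CPM, interval 2.32 to 16.7). The log2 ratios of Tcf3 (-1.35, interval -2.67 to -0.29) and Tcf4 (-1.54) in the step to high did not pass, since the libraries overlapped. Tcf3 passed at -1.57 without the second and at -1.55 without the third library of int and high cells, and at 1.03 in the step to int without the second.

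**Figure D2:**
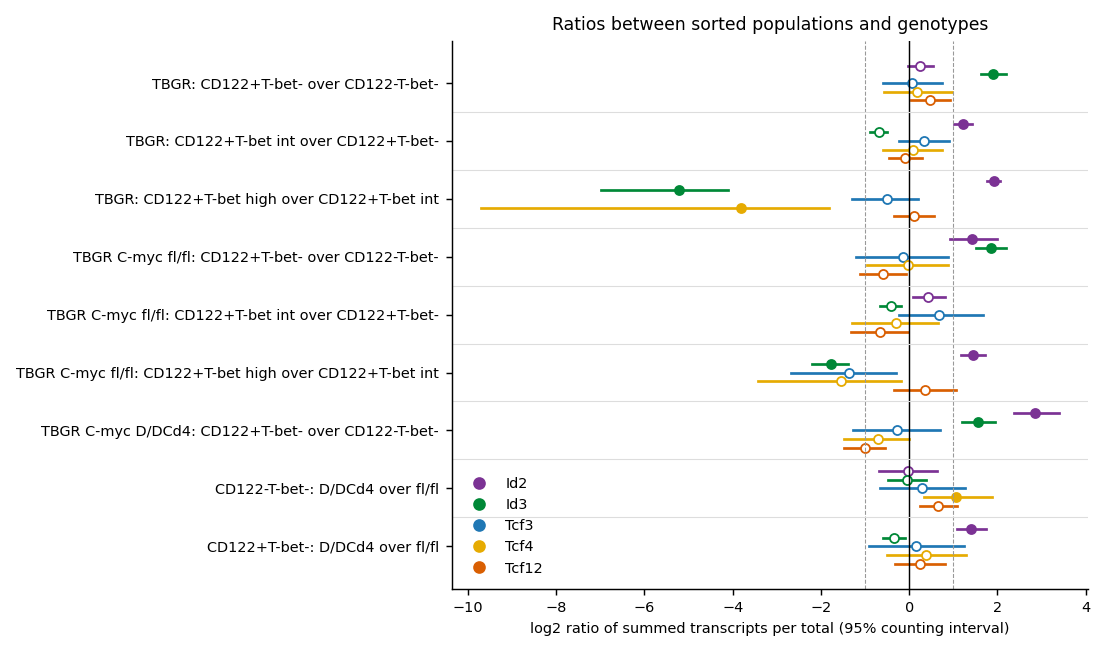
Log2 ratio of Id2, Id3, Tcf3, Tcf4 and Tcf12 in each step between sorted populations and in the C-myc deletion, with exact 95% intervals that cover counting error. Filled points reached 2-fold (dashed lines at -1 and 1) without overlap of libraries. Id3 fell by 5.21 in the last TBGR step and by 1.78 in the last C-myc fl/fl step, and Id2 rose by 2.86 in the first C-myc D/DCd4 step.

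The share of Id2 among Id2 and Id3 transcripts compares the inhibitors within the same cells and needs no library total. In the TBGR genotype it was 56.6% (exact binomial interval 50.6 to 62.5) in CD122- cells, 29.3% (26.4 to 32.3) in CD122+ cells, 61.0% (57.8 to 64.1) in int cells and 99.6% (99.0 to 99.9) in high cells. The libraries of a population differed by at most the 56.4% and 65.9% of int cells. In C-myc fl/fl the share was 31.1% (23.4 to 39.6), 25.4% (21.3 to 29.8), 38.1% (33.5 to 42.9) and 85.2% (81.5 to 88.5) in the same order. There only the high libraries, at 83.0 to 89.8%, stood apart from all others, while those of the 3 earlier populations overlapped between 16.2 and 52.2%.

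**Figure D3:**
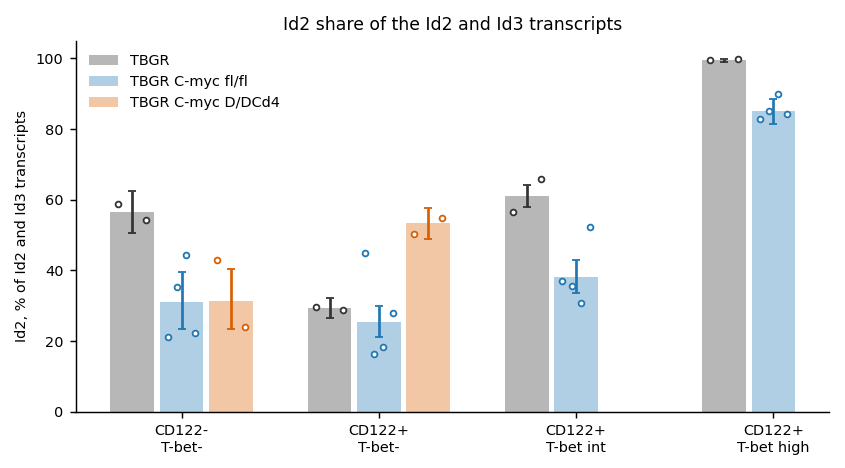
Id2 as a percentage of Id2 and Id3 transcripts in each sorted population of the 3 genotypes. Bars or markers give the pooled share with exact 95% binomial intervals and open points the single libraries. TBGR high cells reach 99.6% and C-myc fl/fl high cells 85.2%, and C-myc D/DCd4 CD122+ cells stand at 53.3% against 25.4% in C-myc fl/fl.

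To read the balance cell by cell, every cell was thinned to 2000 transcripts, so that cells of different depth had the same chance to show a gene. Of the TBGR CD122- cells, 15.5% then held Id2 alone, 14.9% Id3 alone, 5.17% both and 64.4% neither. CD122+ cells held Id2 alone in 13.4%, Id3 alone in 43.0% and both in 9.68%, and int cells in 33.3%, 21.6% and 15.2%. Of 147 high cells, 92.5% held Id2 alone, 0.680% both and none Id3 alone, which allows a share of up to 2.48% with Id3 alone at that depth. At that depth the int cells of this genotype fell into all of these classes, with 29.8% showing neither gene, whereas the high cells were nearly uniform. A class with a single gene describes detection at that depth, since 48.0% of the int cells showed both genes before thinning.

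The share of cells with both genes was close to the product of the shares with each, 17.9% against 15.2% found in int cells and 12.2% against 9.68% in CD122+ cells. Before thinning, both genes were found in 48.0% of the int cells and 40.3% of the CD122+ cells, at median depths of 6348 and 7073.5 transcripts. Barcodes with no sorted cell, 1920 in all, together held 9 transcripts of Id2 and 23 of Id3. In C-myc fl/fl high cells 43.8% held Id2 alone, 9.82% Id3 alone, 4.46% both and 42.0% neither, so the lower pooled Id2 of these cells went with more cells in which no Id2 was counted. None of the 120 CD122- cells of this genotype showed both genes at 2000 transcripts, and 9.17% did before thinning, so that the 0 describes detection at that depth.

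**Figure D4:**
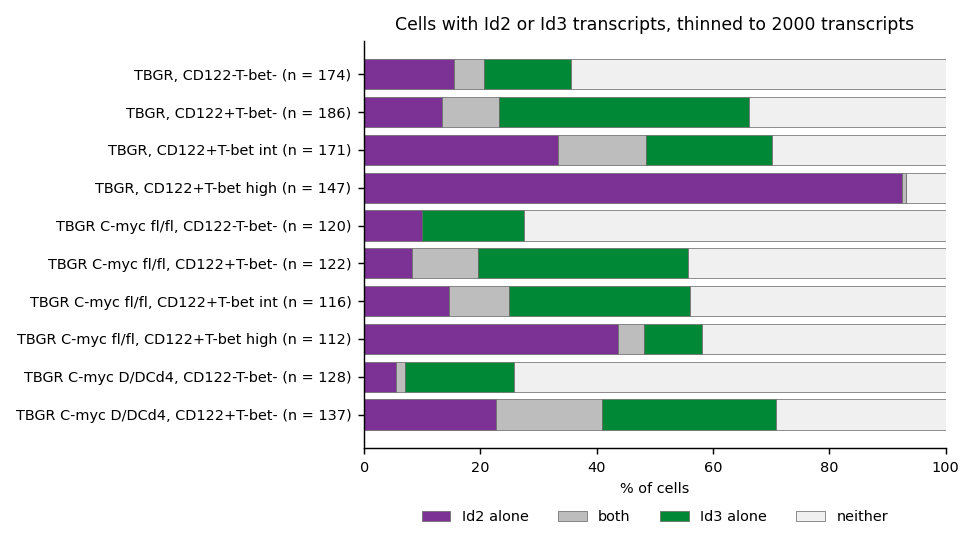
Percent of cells with Id2 alone, both genes, Id3 alone or neither, after thinning each cell to 2000 transcripts, for each sorted population of the 3 genotypes. TBGR high cells hold Id2 alone in 92.5%, TBGR CD122+ cells hold Id3 alone in 43.0%, and C-myc D/DCd4 CD122+ cells hold Id2 alone in 22.6% against 8.20% in C-myc fl/fl.

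Cells of a population that showed 1 inhibitor alone after thinning also differed in other genes, measured on all transcripts of those cells. These genes are listed as a description and were chosen with earlier results of these data in view. The classes describe detection in the thinned counts, so a cell with 1 gene alone could hold the other before thinning. Among TBGR int cells, the 37 cells with Id3 alone had more Ikzf2, which encodes Helios, than the 57 cells with Id2 alone (1199 CPM, interval 1070 to 1338, against 849 CPM, interval 763 to 941). They also had more Il2rb, which encodes CD122 (542 against 330 CPM), and less Tbx21 (22.8 CPM, interval 8.35 to 49.5, against 66.0 CPM, interval 43.9 to 95.4) and less Klrb1c (11.4 against 70.7 CPM). The 2 libraries did not overlap for any of these genes. Among TBGR CD122+ cells Ikzf2 was 1482 CPM (interval 1387 to 1582) in 80 cells with Id3 alone. It was 932 CPM (interval 804 to 1076) in 25 cells with Id2 alone. Before thinning only 10 cells of this population showed Id2 alone, so most of these 25 also held Id3. Nr4a1, an early gene of T cell receptor signalling, went both ways, with 676 CPM in Id2 cells against 356 CPM in Id3 cells of the TBGR CD122- population, and 351 CPM in Id2 cells against 707 CPM in Id3 cells of the C-myc D/DCd4 CD122+ population.

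Id transcripts exceeded E protein transcripts in nearly all populations, and the excess was largest in TBGR high cells. The sum of Id1, Id2 and Id3 over that of Tcf3, Tcf4 and Tcf12 was 2.33 (interval 1.88 to 2.91), 4.31 (3.73 to 5.01), 4.67 (4.01 to 5.45) and 13.75 (11.1 to 17.3) from CD122- to high cells. The E protein sum itself was 123, 154, 159 and 125 CPM, so that the ratio followed the Id genes. In C-myc fl/fl the ratio was 1.09 (0.847 to 1.40), 4.80 (3.80 to 6.10), 5.10 (4.02 to 6.52) and 8.21 (6.15 to 11.2), and the high libraries ranged from 4.22 to 19.6. Tcf12 supplied 52.9 to 58.8% of the E protein transcripts in the first 3 TBGR populations and 73.9% in high cells, where Tcf4 supplied 1.14%. These are transcript ratios, and CEL-Seq2 counts 1 tag at the 3′ end of each transcript, so they carry no term for gene length.

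**Figure D5:**
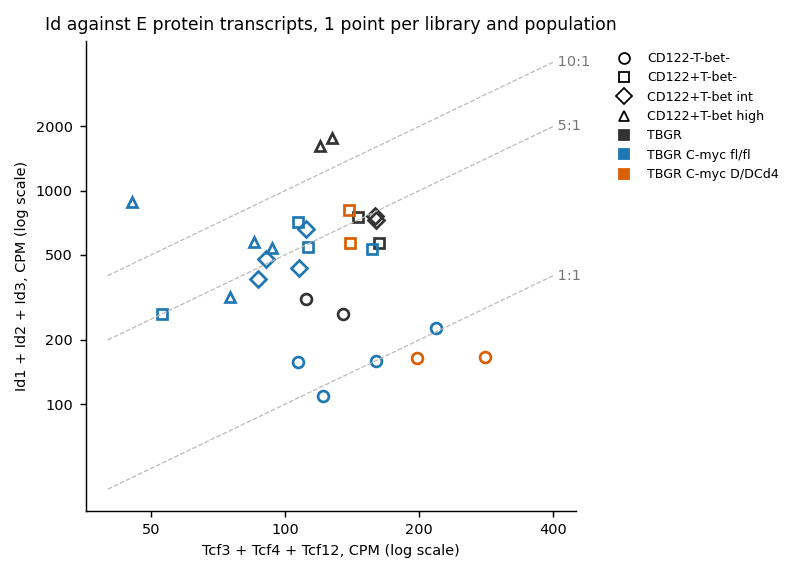
Summed Id1, Id2 and Id3 against summed Tcf3, Tcf4 and Tcf12, both in CPM on log scales, with 1 point for each of the 28 sums of a population in a library. Dashed lines mark ratios of 1, 5 and 10. Both TBGR high libraries lie above 10 (13.9 and 13.4), and both C-myc D/DCd4 CD122- libraries lie below 1 (0.831 and 0.595), a side that turned when cells were thinned to 2000 transcripts (pooled 1.28).

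The comparison of C-myc D/DCd4 with C-myc fl/fl asked what the loss of C-myc does before T-bet is induced. Myc itself stood at 24.8 CPM (libraries 16.7 and 30.0) in C-myc D/DCd4 CD122- cells against 42.0 CPM (14.0 to 63.0) in C-myc fl/fl, and at 25.1 CPM (44.5 and 9.96) against 99.0 CPM (10.6 to 135) in CD122+ cells. The libraries overlapped in both, and the remaining Myc tags check the deletion only if the deleted part includes the 3′ end, which is not given in the sources used here.

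In CD122+ cells C-myc D/DCd4 had more Id2, 286 and 443 CPM (pooled 374, interval 331 to 422), against 240, 116, 99.2 and 74.3 CPM in C-myc fl/fl. Both libraries lay above all 4 of the control, and Id2 was the 1 of 5 members called, where 13.5% of all genes were higher and 6.13% lower. The log2 ratio was 1.40 (interval 1.08 to 1.74), or 1.22 above the median gene, and 1.02 without the second C-myc D/DCd4 library. Markers of B cells moved with this difference: all 6 were detected in the C-myc D/DCd4 cells and summed to 124 CPM (libraries 19.1 and 207), against 22.4 CPM (9.02 to 36.9) with Cd79a at 0 in the control. Other marker lists moved with it too and their libraries did not overlap. Markers of αβ T cells summed to 4805 and 6191 CPM against 2705 to 4637 CPM. Those of γδ T cells summed to 1036 and 1093 CPM against 189 to 696 CPM. Double positive thymocyte markers summed to 102 and 111 CPM against 0 to 59.9 CPM. NKT cell markers summed to 191 and 284 CPM against 104 to 134 CPM. Slamf6 gave 180 of their pooled 243 CPM in C-myc D/DCd4, and Trav11 was at 0. Zbtb16, also on this list, went the other way and was called lower, as given with the E protein targets below. The study reports NKT cells as virtually absent from this gate in these mice. Plasmacytoid dendritic cell markers summed to 254 and 314 CPM against 42.4 to 108 CPM, and Ccr9 gave 197 of their pooled 280 CPM. Their part in the Id2 difference was not tested. Without the 14 of 137 and 15 of 122 cells with a B cell marker transcript, a choice made after seeing the data, the ratio was 1.30 (interval 0.95 to 1.66), and the libraries then overlapped.

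Id3 in these cells was 283 and 363 CPM (pooled 328, interval 287 to 373) against 191 to 597 CPM in the control, a log2 ratio of -0.34 (interval -0.59 to -0.09) with overlapping libraries. The Id2 share was therefore 53.3% (48.8 to 57.7), with libraries at 50.3 and 54.9%, against 25.4% and libraries of 16.2 to 44.8% in C-myc fl/fl. By cell, Id2 alone was found in 22.6% and both genes in 18.2% of the C-myc D/DCd4 CD122+ cells, against 8.20% and 11.5% in C-myc fl/fl. The step into CD122+ within the C-myc D/DCd4 genotype raised Id2 by a log2 ratio of 2.86 (interval 2.39 to 3.40) and Id3 by 1.56 (interval 1.20 to 1.94), 2 of 5 members, where 13.4% of genes were higher and 7.84% lower. Tcf12 gave -0.996 (interval -1.48 to -0.54) in that step, just under 2-fold, with both CD122+ libraries (73.0 and 84.6 CPM) below both CD122- libraries (144 and 169 CPM). Without the second CD122+ or the first CD122- library it was -1.10 and -1.09 and passed. It also passed with cells thinned (-1.52), under median-of-ratios scaling (-1.09), with at least 3000 transcripts per cell (-1.07) and with totals without ribosomal protein genes (-1.02).

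In CD122- cells the Id genes of the 2 genotypes were close. Id2 was 70.3 and 38.6 CPM (pooled 50.9) in C-myc D/DCd4 against 51.8 CPM, a log2 ratio of -0.02, and Id3 was 93.7 and 122 CPM (pooled 111) against 115 CPM, a ratio of -0.05. The Id2 shares were 31.5% (23.4 to 40.4) and 31.1%. Tcf4 was the 1 of 5 members called, with 46.8 and 68.6 CPM (pooled 60.1, interval 44.0 to 80.2) against 19.4 to 35.6 CPM, where 12.9% of all genes were higher and 1.0% lower. Its log2 ratio was 1.07 (interval 0.33 to 1.87), 0.62 above a median gene that stood at 0.45. It was -0.30 (interval -2.16 to 1.48) when cells were thinned to 2000 transcripts, so that its direction is not settled by these counts. The thinned value rested on 6 cells against 7, with at most 1 transcript each. It was 0.74 without the second C-myc D/DCd4 library, 0.91 without the first C-myc fl/fl library and 0.80 under median-of-ratios scaling, each time not called. B cells also use Tcf4, and over all genotypes the 173 cells with a Tcf4 transcript had 77.2 CPM of B cell markers against 16.4 CPM in the 1240 cells without one. With marker-positive cells left out the Tcf4 ratio was 1.39. Tcf12 was 144 and 169 CPM (pooled 159, interval 132 to 190) against 46.5 to 175 CPM, which overlapped, and Tcf3 gave 0.29, with libraries of 6.69 and 42.9 CPM in C-myc D/DCd4. Without the second of these Tcf3 gave -1.53, and without the first C-myc fl/fl library Tcf12 gave 1.06, and both passed. The E protein sum was 248 CPM against 153 CPM, and the Id to E protein ratio 0.668 (interval 0.530 to 0.841) against 1.09 (0.847 to 1.40). With cells thinned to 2000 transcripts the order turned, at 1.28 (interval 0.858 to 1.93) against 1.10 (0.698 to 1.75).

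Genes around the pathway were taken from lists chosen with earlier results known. Of 12 genes that signal to Id genes, among them the receptor of TGF-β, Smad and Stat5 factors and the Egr factors induced by T cell receptor signals, 10 were tested in the first TBGR step and 2 were higher, Egr2 (log2 ratio 1.54) and Il2rb (5.14), the latter a gene of the sort itself, where 14.3% of all genes were higher. Their median was 0.15 against 0.26 for all genes. Egr2 then fell by 1.47 into int cells and by 3.56 into high cells (interval -9.47 to -1.54), where 1 of 11 tested was higher (Tbx21, also a gene of the sort) and 3 lower, Egr2, Stat5a and Egr1, beside 7.93% and 11.7% of all genes. Egr2 rose by 2.37 in the C-myc D/DCd4 step, and fell by 2.22 from int to high in C-myc fl/fl. In the C-myc deletion Tgfbr2 and Smad4 were higher in both T-bet- populations, by 1.60 and 1.25 in CD122- cells, where 2 of 9 tested were higher, and by 1.76 and 1.60 in CD122+ cells, where Tgfbr1 made 3 of 10. No gene of the list was lower in either, and 12.9% and 13.5% of all genes were higher. The list medians were 0.69 against 0.45 and 0.52 against 0.18 for all genes.

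Of 18 genes known as E protein targets in thymocytes, 13 were tested in the first TBGR step, with Socs3 higher (1.74) and Cd4 (-3.28) and Dtx1 (-1.66) lower, beside 14.3% and 3.92% of all genes, and a median of -0.17. Cd4, for the coreceptor that the sort excluded, is also 1 of the 8 double positive thymocyte markers. These summed to 722 CPM in TBGR CD122- cells, of which Cd4 gave 585 CPM, and to 133 to 135 CPM in the later populations. The fall of this sum is thus mostly that of Cd4 itself. In the step to int 5 of 13 were lower, among them Cdkn1a, Cd4, Gfi1 and Socs3, and Dtx1 alone was higher (1.87), beside 6.94% lower and 3.49% higher of all genes, with a median of -0.26. In the step to high 3 of 12 were higher, Rag1, Socs1 (1.96) and Il7r (1.89), and Cdk6 (-1.90) and Foxo1 (-1.21) were lower, beside 7.93% and 11.7% of all genes, with a median of 0.80 against -0.09 for all genes. The Rag1 transcripts came mostly from the high library with the most transcripts outside sorted cells, at 137 CPM against 4.24 CPM in the other high library.

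In the C-myc D/DCd4 step 6 of 14 targets were lower, among them Ptcra, the pre-T cell receptor chain, with 59 transcripts in CD122- cells and 0 in CD122+ cells, and 2 were higher, Foxo1 (2.10) and Socs1 (1.48), beside 7.84% lower and 13.4% higher of all genes, with a median of -0.96 against 0.13 for all genes. In C-myc fl/fl 11 targets were tested in the same step, with Zbtb16 higher (2.86) and Rag1 (20 transcripts against 0) and Cd4 (-2.55) lower, beside 5.39% and 0.928% of all genes, and none passed in the later steps of that genotype, of 6 and 8 tested. With C-myc deleted, 5 of 14 targets were higher in CD122- cells, among them Dtx1 (1.94), Notch1 (1.37), Gfi1 (1.30) and Gata3 (1.23), and none lower, beside 12.9% and 1.0% of all genes. In CD122+ cells Notch1 (1.74), Gata3 (1.30) and Foxo1 (1.02) were higher and Zbtb16 (-1.21) lower, 3 and 1 of 11, beside 13.5% and 6.13% of all genes. The medians were 0.65 against 0.45 and 0.90 against 0.18 for all genes. Counts over a list cover the genes that passed the minimum of 20 transcripts and say nothing of the rest.

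Of 20 helix-loop-helix partners and repressors at E boxes, 6 to 9 had enough transcripts in a comparison, and 0 to 3 were higher and 0 to 2 lower in any, where 0.562 to 14.3% of all genes were higher and 0.506 to 11.7% lower. Bhlhe40, a repressor induced by cytokine and T cell receptor signals, rose in both later TBGR steps and reached 102 CPM in high cells (log2 ratio 3.30, interval 2.48 to 4.32). Hes1, the Notch target, had 37 transcripts in TBGR int cells and none in high cells. Ldb1, an adaptor of E protein complexes, fell by 1.57 into int cells and rose by 1.48 into high cells. Zeb1, which represses at E boxes, was higher with C-myc deleted in both populations (1.57 and 1.28), as was the coactivator Crebbp (1.04 and 1.10). Id4, the remaining Id gene, had 1 transcript in all cells.

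Over the 28 sums, the genes whose log2 level followed Id2 most closely, among 1235 genes with at least 1000 transcripts, were B2m (Pearson r = 0.916), H2-D1 (0.907) and H2-Q5 (0.894), all of the class I antigen presentation complex. Those nearest to Id3 were Nrgn (0.888), Emb (0.886) and Pdcd1 (0.860), which encodes PD-1. Those near to Tcf12 included Bcl11b (0.664) and Metap2 (0.649), and those nearest to Tcf3 were Paip2 (0.653), Bzw2 (0.628) and Lmo4 (0.616). Id2 and Id3 gave -0.381, Id2 and Tcf4 -0.597, and Id3 and Tcf4 0.555. The sums share mice, populations and, in C-myc fl/fl, libraries, and the values are a description of them.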

How the data were processed

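Single cells were sorted into 384-well plates, and CEL-Seq2 libraries of 96 cells were sequenced and aligned by the authors with BWA 0.6.2-r126 to mouse transcripts of GENCODE VM9. Isoforms and loci with large overlap were merged, reads with several hits discarded, and unique molecular identifiers of 6 bases counted on the sense strand. The deposited values are estimated (expected) transcript counts, corrected for identifier saturation by the authors, and were rounded to whole transcripts here. A deposited well table gave each barcode's sorted population. Cells needed 2000 transcripts, without mitochondrial genes and spike-ins.

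Transcripts were summed over cells of a population in a library and divided by the total (CPM). Log2 ratios took 0.5 added transcripts and exact conditional intervals, and shares exact binomial intervals (Clopper-Pearson), all at 95% and covering counting error only. No test between conditions was run, and the ratio script was checked on simulated data. The members, lists and marker genes were chosen with earlier results of these data known, and the text names the members, the genes called in a list (at most 4 per list and comparison with the largest ratios, or all called where their count is given by name) and the 3 genes most like a member. A few genes that these rules name are not reported here. A count of 0 allows 3 transcripts. The upper limit given beside a share of cells at 0 is the exact binomial one. The library totals ran from 94268 to 775264 transcripts per population, at median depths of 3298 to 7809.5 per cell, so that levels under about 10 CPM rest on a few transcripts. All 192 cell barcodes were used by 10 libraries each, and 0 cells had the same counts as another. Doublets were not called, since wells were sorted singly.

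Alternatives were other cell minimums, thinning, no rounding, median-of-ratios scaling, totals without ribosomal protein genes, other minimums per gene, and leaving out each library. A limit of 2% on Kcnq1ot1, a transcript that the study takes as a marker of low quality cells, was also set. It removed no cell, since the highest share was 0.902%. Promoter windows came from RefSeq (GRCm38.p6), and Id1 was not matched there. Python 3.11.15, NumPy 2.4.6, SciPy 1.17.1, pandas 2.3.3 and matplotlib 3.10.9 were used.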

Additional observations from a re-analysis of the deposited data

Results flagged for a closer look

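In C-myc fl/fl high cells, library 3 stood apart in Tcf3, at 22.01 CPM against 8.34 to 10.1 CPM in the other 3, a difference of 4 transcripts against 1 or 2. In the same cells, library 1 stood apart in the Id to E protein ratio, at 19.6 against 4.22 to 6.76. Of 28 groups of 4 libraries examined, these 2 were far from the others by Dixon's criterion, and chance gives about 1 in 20.

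The log2 ratio of Tcf12 in CD122+T-bet- over CD122-T-bet- sums was 0.47 in TBGR and -0.996 in C-myc D/DCd4, with no overlap of libraries in either, and -0.58 (interval -1.12 to -0.07) in C-myc fl/fl, where the libraries overlapped. The difference was not tested, and TBGR differs from the other genotypes in age.

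The 507 wells under 2000 transcripts, left out of every comparison, held Id2 at 437 CPM (interval 377 to 502), above the 176 CPM (interval 80.6 to 334) of barcodes with no sorted cell. Id3 was 257 CPM (interval 213 to 309) in the same wells, against 450 CPM (interval 285 to 676) in the barcodes with no sorted cell. It was thus not above them, and the intervals overlapped.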

How the results depend on the processing

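No paired analysis was possible because no test between conditions was run and the library numbers pair nothing across genotypes. Ratios within a library, which C-myc fl/fl allows, are given with the results. Of the ratios between sorted populations recomputed under the alternatives, 423 stayed on the same side of the 2-fold rule, 6 left it and 11 entered it. For the C-myc deletion 143 stayed, 4 left it, 1 entered it and 2 reversed. Of the 423 and 143 that stayed, 35 and 10 came from the limit on Kcnq1ot1, which removed no cell and so could not change them. With cells thinned to 2000 transcripts the first C-myc fl/fl step gave 1.10 for Id2 and 1.87 for Id3, and the last TBGR step -4.03 for Tcf4, none of them called. Median-of-ratios scaling gave 1.22 for the same Id2 step, and a minimum of 3000 transcripts per cell gave 1.40 for Id2 from int to high in C-myc fl/fl. With a library left out the first Id2 step in C-myc fl/fl ran from 0.93 to 1.82. For the deletion, Tcf4 in CD122- cells reversed to -0.30 (interval -2.16 to 1.48) under thinning. It gave 0.80 under median-of-ratios scaling and ran from 0.74 to 1.26 with a library left out. Tcf3 in CD122- cells ran from -1.53 to 0.87, its sign reversing without the second C-myc D/DCd4 library. Id2 in CD122+ cells gave 1.30 without cells with a B cell marker, an alternative chosen after seeing the data. The causes were not tested.

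Thinning before summing moved the Id to E protein ratio to 8.75 in C-myc fl/fl CD122+, 12.1 in its high, 1.28 in C-myc D/DCd4 CD122- and 8.07 in its CD122+ cells, and the Id2 share to 43.3% in C-myc fl/fl int and 22.4% in C-myc D/DCd4 CD122- cells. With a library left out, the Id to E protein ratio ran from 3.48 to 5.15 in TBGR CD122+ and from 5.84 to 9.40 in C-myc fl/fl high cells. The Id2 share ran from 56.4 to 65.9% in TBGR int, from 18.0 to 30.9% in C-myc fl/fl CD122+ and from 24.0 to 42.9% in C-myc D/DCd4 CD122- cells.

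By cell, the share with both genes was without thinning 16.7, 40.3 and 48.0% in the first 3 TBGR populations, 9.17, 25.4, 31.0 and 17.0% in C-myc fl/fl and 6.25 and 32.8% in C-myc D/DCd4. Id3 alone was then 21.8% in TBGR CD122-, 30.8% in C-myc fl/fl CD122- and 41.4% in its int cells, and Id2 alone 5.38% in TBGR CD122+ and 22.8% in TBGR int cells. Thinned to 3000 transcripts, Id2 alone was 22.2% in TBGR CD122- cells, and both 19.9 and 29.3% in TBGR CD122+ and int cells. With a library left out, both ran from 0 to 1.09% in TBGR high and from 1.15 to 6.25% in C-myc fl/fl high cells, and Id3 alone from 10.3 to 25.7% in C-myc D/DCd4 CD122- cells.

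The background share of genes higher or lower moved with the minimum per gene and the scaling. At 100 transcripts over both groups it was 9.07% higher and 2.37% lower in the first TBGR step, 2.07 and 2.70% in the second, 0.317 and 0.0907% in the second C-myc fl/fl step, and 0.390% lower in the deletion in CD122- cells. With no minimum beyond 1 transcript it was 6.73% lower in the first TBGR step, 2.23% higher in the first and 0.773% higher and 1.39% lower in the last C-myc fl/fl step, and in the deletion 8.36% higher in CD122- and 2.90% lower in CD122+ cells. Under median-of-ratios scaling it was 5.96% lower in the first TBGR step, 3.15% higher and 1.74% lower in the first C-myc fl/fl step, and 5.16% higher and 2.29% lower in the deletion in CD122- cells.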
